A study of Vitis vinifera with 60 samples.

Results

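The step from pea-sized to touching berries is the later part of green berry growth, the interval between berries the size of a pea and berries that begin to touch one another in the bunch. It was described by setting the 5 columns of touching berries against the 5 columns of pea-sized berries, paired by cultivar. The columns stand for 30 of the 60 libraries of the series. The material was berry pericarp, the berry without its seeds, of 5 red-berried cultivars of Vitis vinifera, namely Sangiovese, Barbera, Negroamaro (written Negro amaro in the labels), Refosco and Primitivo. All vines stood in one vineyard in Conegliano, the berries were collected in the 2011 season, and no treatment is given. The labels list 3 biological replicates for each cultivar and stage. The deposited table, however, holds 1 value per gene, cultivar and stage, the authors' mean in FPKM (fragments scaled to transcript length and library size). Neither the spread of the replicate libraries nor the depth behind a value is therefore known, each SD below is the spread over 5 cultivars, and p-values measure a change against its variation between cultivars.

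In the green phase the grape berry divides and expands its cells and fills its vacuoles with tartaric and malic acid and with tannins. Tannins, or proanthocyanidins, are polymers of flavan-3-ols made by the flavonoid pathway, which starts from phenylalanine. Sugar storage, softening and, in red berries, anthocyanin colour come later, at the onset of ripening. The deposited table gives locus tags only, and 0 of these tags were found in the gene table of the reference. Where a tag has a name below, it rests on published assignments of grapevine locus tags, not on the files, and names of a gene family member are given as such assignments and were not checked by sequence. In a bulk tissue, fewer cells of a type and less RNA per cell cannot be told apart. Markers of seed, chlorenchyma and dividing cells were not analysed here, because they had been listed by product name.

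Averaged over all 20 columns, 18207 genes reached 1 FPKM and were tested, and 7310 changed between the stages (40.1%), with 4035 higher in touching berries (22.2%) and 3275 lower (18.0%). The call was a Benjamini-Hochberg adjusted p under 0.05 in limma on log2(FPKM + 1), with stage and cultivar in the model and 4 residual degrees of freedom. Most changes were small, with a median size of 0.52 log2 units among the genes called. Larger changes were mainly falls. Rises of 2-fold or more numbered 423 (2.32%) and falls 1031 (5.66%), while 16 genes rose and 62 fell by 8-fold or more. Of the 2-fold changes, 414 rises and 1009 falls went the same way in 5 of 5 cultivars. The balance of rises and falls depended on the scaling of the columns. Among genes called, 55.2% were higher as deposited. This share was 58.7% with quantile-normalized values, 48.8% with columns scaled to their upper quartile, and 29.3% with columns of equal total, a scaling that moved the median change of all genes by -0.138 from 0.034. At equal total FPKM there were 295 rises and 1285 falls of 2-fold or more. Total FPKM as deposited was 800132 ± 13220 (SD) in pea-sized and 894893 ± 35913 in touching berries, higher in 5 of 5 cultivars. With all 20 columns in the fit, 4165 genes were called, of which 4046 were among the 7310. Without Primitivo 4549 genes were called.

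**Figure D1:**
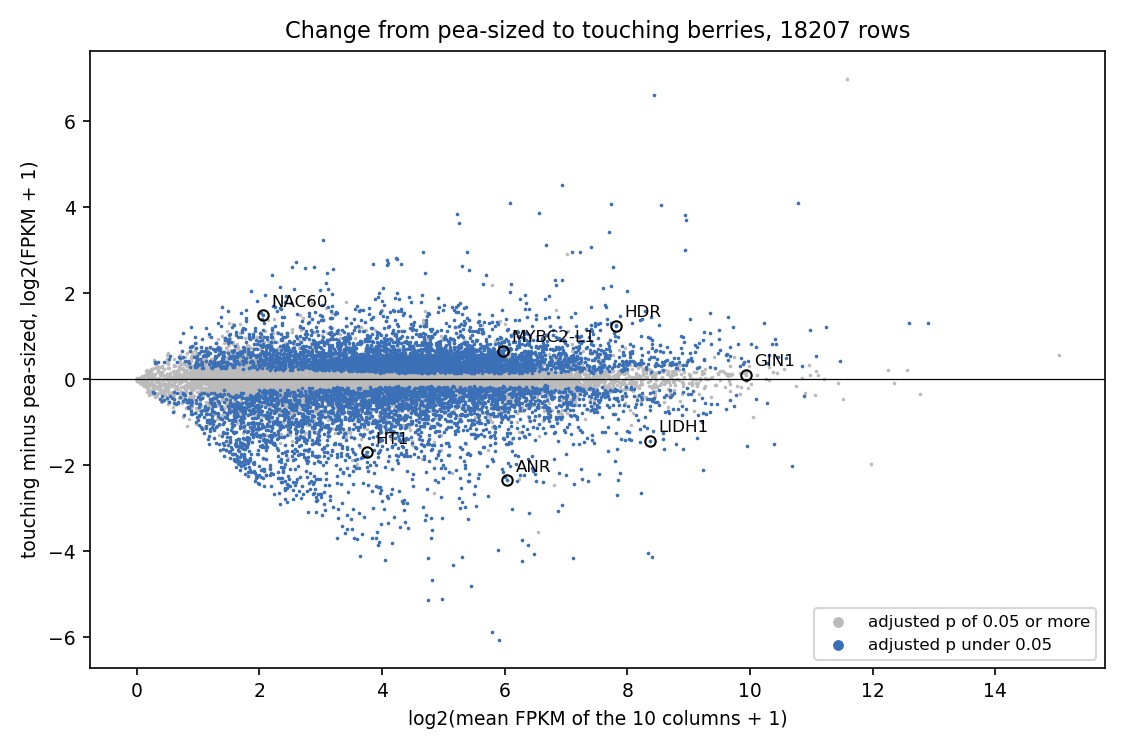
Change from pea-sized to touching berries (vertical axis, difference of log2(FPKM + 1)) against the mean level of the 10 columns (horizontal axis, log2 scale) for 18207 genes, with the 7310 genes called in blue and named genes circled. Among genes called, more fall than rise by 8-fold or more (62 against 16), and GIN1 lies close to 0 at a high level.

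The 2-fold falls led, by their median, to low levels that stayed low. That median over genes was 13.3 FPKM before and 3.11 FPKM after, and it stood at 1.48 FPKM after softening and 1.13 FPKM at harvest. Single genes among these falls differed. From pea-sized through touching and soft to harvested berries, the chalcone synthase gene CHS3 (VIT_05s0136g00260) had means of 235, 65.7, 981 and 488 FPKM. The anthocyanidin reductase gene ANR (VIT_00s0361g00040) had means of 109.5, 20.5, 1.62 and 2.16 FPKM. The 2-fold rises had medians of 10.5 FPKM before and 31.1 FPKM after, then 28.1 and 20.6 FPKM at the later stages. Over all genes tested the 4 medians were 14.6, 14.5, 11.1 and 10.4 FPKM. Fewer genes stood at 1 FPKM or more in touching than in pea-sized berries. Their number went from 17954 ± 105 (SD, n = 5 cultivars) to 17343 ± 118 and fell by 611 ± 141 within cultivars, in 5 of 5 of them.

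Most genes of the shared flavonoid steps were lower in touching berries. Of the 9 genes for enzymes shared by tannins and anthocyanins, 7 fell, 0 rose and 2 were not called, with a median change of -1.50. These are 77.8% and 0%, beside 18.0% of all genes that fell and 22.2% that rose, the shares against which the counts of each list below stand. Chalcone synthase carries out the committing step of the pathway. In the order Sangiovese, Barbera, Negroamaro, Refosco and Primitivo, which holds for every list of 5 values here, CHS2 (VIT_14s0068g00920) stood at 66.7, 88.4, 92.7, 120.1 and 120.3 FPKM in pea-sized berries and 46.3, 10.03, 27.4, 24.9 and 15.4 FPKM in touching berries. Every touching value lay below every pea-sized value, and the change was -2.07 ± 0.37 (SE), adjusted p = 0.00874. The other 2 chalcone synthase genes also fell, with log2 changes of -2.15 for CHS1 (VIT_14s0068g00930) and -2.07 for CHS3 (VIT_05s0136g00260) (adjusted p = 0.0198 and 0.0377). CHS3 did not fall in Sangiovese, where it was at 75.9 and 78.1 FPKM. Flavanone 3-hydroxylase F3H1 (VIT_04s0023g03370), which makes dihydroflavonols, stood at 57.6, 99.5, 124, 117 and 122 FPKM in pea-sized berries and 40.4, 10.1, 29.7, 18.7 and 13.6 FPKM in touching berries. The groups did not overlap, and the change was -2.27 ± 0.40 (SE), adjusted p = 0.0082. Its paralog F3H2 (VIT_18s0001g14310) was at 128 ± 4.11 and 132 ± 30.1 FPKM and was not called (adjusted p = 0.93). Chalcone isomerases CHI1 (VIT_13s0067g03820) and CHI2 (VIT_13s0067g02870) fell, with changes of -1.40 and -0.82 (adjusted p = 0.00676 and 0.011). LDOX (VIT_02s0025g04720), which makes anthocyanidins, fell as well (log2 change -1.50, adjusted p = 0.0321), while DFR (VIT_18s0001g12800), the step before it, had a change of -0.41 and was not called (adjusted p = 0.0928). Some of these calls rested on the full set of cultivars. The adjusted p of CHS1 was 0.0564 without Refosco and 0.0705 without Primitivo, that of CHS3 0.0617 without Barbera, 0.0676 without Negroamaro, 0.0852 without Refosco and 0.115 without Primitivo, and that of LDOX 0.0879 without Negroamaro and 0.0861 without Refosco. Without a filter on low values, CHS3 and LDOX were at 0.067 and 0.0581. DFR was called without Sangiovese (0.0229) and at equal total FPKM (0.0484).

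The tannin branch followed for anthocyanidin reductase and one leucoanthocyanidin reductase. Anthocyanidin reductase, ANR (VIT_00s0361g00040), makes the epicatechin units of tannins, and it stood at 41.3, 139.8, 92.7, 113 and 161 FPKM in pea-sized berries and 32.3, 8.68, 25.6, 19.7 and 16.3 FPKM in touching berries. Touching berries of all 5 cultivars lay below all pea-sized ones, with Barbera at the lowest value and Sangiovese at the smallest change. The change was -2.34 ± 0.50 (SE), adjusted p = 0.0147, and the adjusted p was 0.0555 without Primitivo. LAR1 (VIT_01s0011g02960), which makes catechin units, stood at 11.9, 12.2, 13.6, 4.68 and 26.7 FPKM in pea-sized berries and 8.199, 4.41, 6.31, 2.66 and 9.91 FPKM in touching berries. The groups overlapped, but LAR1 was lower in 5 of 5 cultivars (-0.95 ± 0.15 (SE), adjusted p = 0.00585), with an adjusted p of 0.0555 when all 20 columns entered the fit and 0.128 without the cultivar term. LAR2 (VIT_17s0000g04150) was at 73.4 ± 23.1 and 80.6 ± 45.5 FPKM and was not called (adjusted p = 0.97), being higher in touching berries of Barbera, Negroamaro and Refosco and lower in those of Sangiovese and Primitivo.

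**Figure D2:**
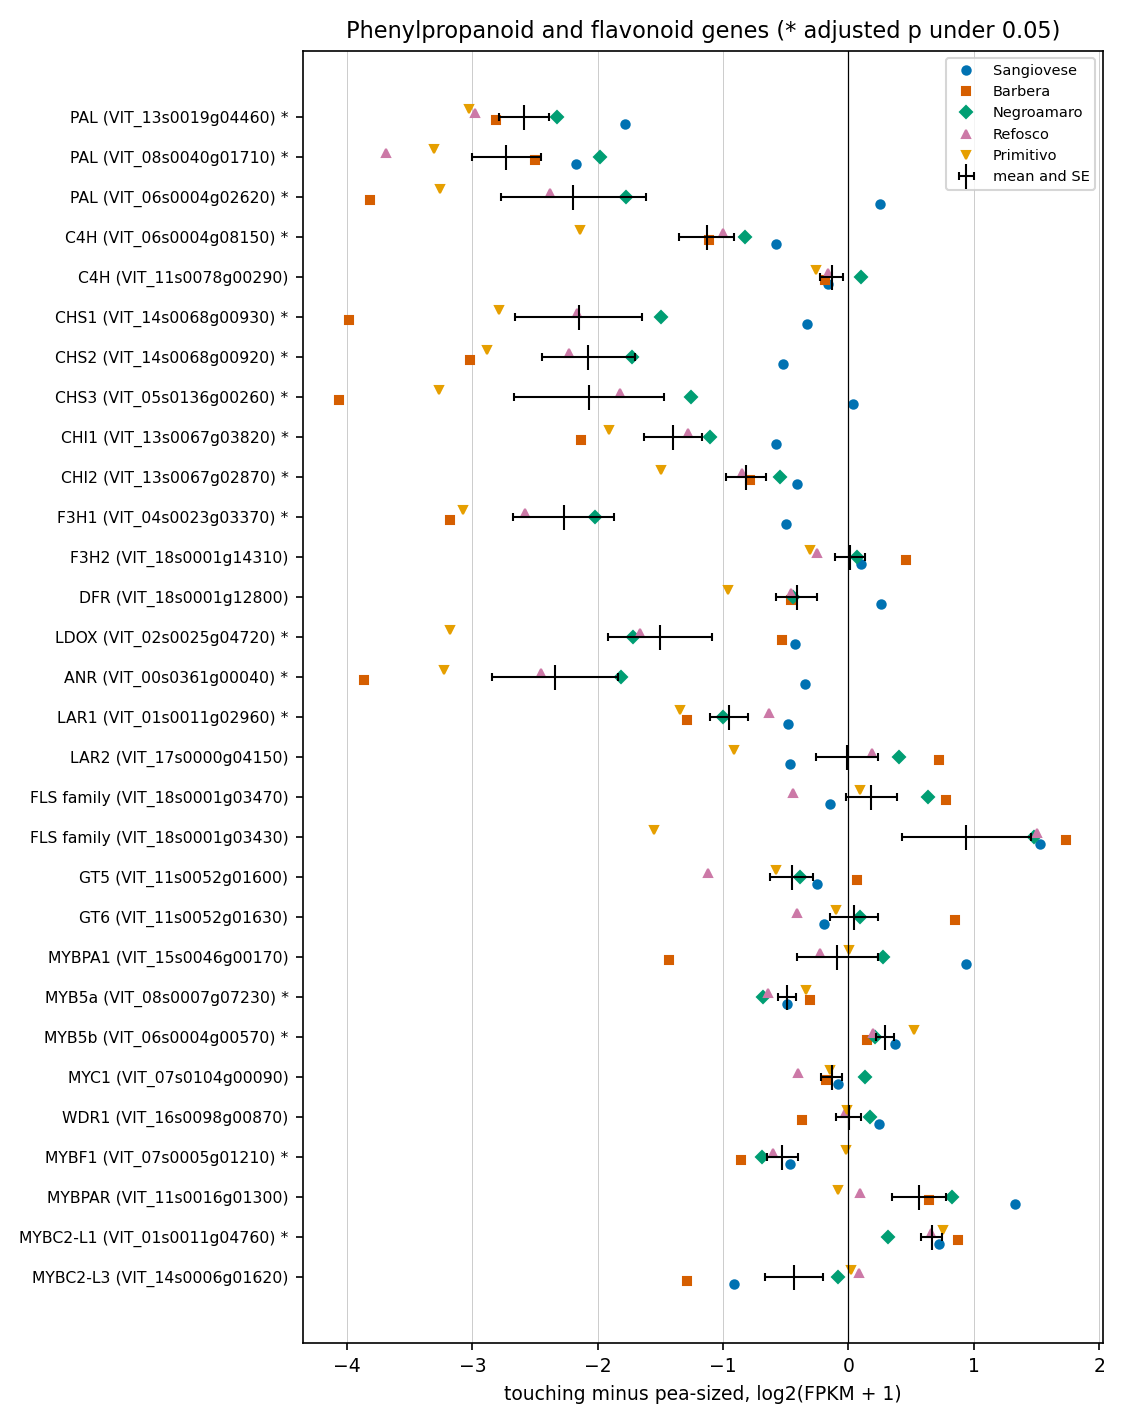
Change from pea-sized to touching berries of phenylpropanoid and flavonoid genes (horizontal axis, difference of log2(FPKM + 1)), with 1 symbol per cultivar and the mean and SE of the fit in black. An asterisk marks an adjusted p under 0.05, and Sangiovese lies nearest to 0 for CHS1, CHS2, CHS3, F3H1 and ANR.

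The regulators of this pathway had mean changes under 1 log2 unit. MYB5a (VIT_08s0007g07230), an activator of flavonoid genes in green berries, went from 51.4 ± 5.07 to 36.3 ± 4.28 FPKM and fell in 5 of 5 cultivars (-0.49 ± 0.07 (SE), adjusted p = 0.00507). MYBF1 (VIT_07s0005g01210), the activator of flavonol synthesis, fell by 0.53 (adjusted p = 0.0204, but 0.0572 without Sangiovese, 0.0653 without Negroamaro and 0.0635 without Refosco, 0.194 with all 20 columns and 0.233 without the cultivar term). MYB5b (VIT_06s0004g00570) rose by 0.29 (adjusted p = 0.0233, but 0.0755 without Sangiovese, 0.0526 without Negroamaro and 0.0642 without Primitivo, 0.0722 with all 20 columns and 0.177 at equal total FPKM). MYBPA1 (VIT_15s0046g00170), an activator of tannin synthesis, was at 29.8 ± 15.2 and 28.9 ± 14.1 FPKM and was not called (adjusted p = 0.839). MYBPAR, MYC1 and WDR1 were not called either, but MYC1 was called lower at equal total FPKM (0.0228) and MYBPAR higher after quantile normalization (0.0463). MYBPA2 was under the filter. The repressor MYBC2-L1 (VIT_01s0011g04760) stood at 43.5, 47.3, 57.8, 45.7 and 45.2 FPKM in pea-sized berries and 72.6, 87.3, 72.2, 72.7 and 76.7 FPKM in touching berries. All touching values exceeded all pea-sized values, and the rise was 0.66 ± 0.09 (SE), adjusted p = 0.00331. MYBC2-L3 (VIT_14s0006g01620), a related repressor, was not called (change -0.43, adjusted p = 0.182).

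In the flavonol branch 0 of 4 genes were called, of which 3 averaged 1 FPKM over the 10 columns of both stages. The glycosyltransferase tag named GT5 (VIT_11s0052g01600) had a change of -0.45 (adjusted p = 0.0833), and it was called lower at equal total FPKM (0.0403) and without Barbera (0.0349). The flavonol synthase family member VIT_18s0001g03430 was higher in touching berries of 4 cultivars, by 1.48 to 1.74 log2 units, and lower in Primitivo (-1.55). Its adjusted p was 0.189 over 5 cultivars and 0.00395 without Primitivo. Hydroxylases set the pattern of the flavonoid B-ring. Both flavonoid 3′-hydroxylase tags had changes under 0.1 log2 units and were not called, and among 12 tags tested in the chromosome 6 stretch that holds the flavonoid 3′,5′-hydroxylase cluster 1 rose (8.33%) and 2 fell (16.7%), where 22.2% and 18.0% of all genes did. Reads of near-identical copies in such a stretch may have been divided between tags, so single tags in it are uncertain.

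The late anthocyanin genes were near 0 at both stages. UFGT (VIT_16s0039g02230), the glucosyltransferase that completes anthocyanins, did not exceed 0.197 FPKM in any of the 10 columns, and its mean was 123 FPKM in soft berries. The colour activators MYBA1 (VIT_02s0033g00410) and MYBA2 (VIT_02s0033g00390) reached at most 0.731 and 0.533 FPKM, and GST4 (VIT_04s0079g00690), which serves anthocyanin transport into the vacuole, at most 2.49 FPKM. The acyltransferase 3AT reached at most 1.06 FPKM, whereas the MATE transporter named AM1 (VIT_16s0050g00930) was at 49.9 ± 18.9 and 51.1 ± 16.3 FPKM and was not called. Of the 9 genes of this list 0 rose and 3 fell (33.3%, against 18.0% of all genes). Only 3 of the 9 averaged 1 FPKM over the 10 columns of both stages, and 2 of those fell. The other 6, among them AOMT2, were tested through their levels in soft and harvested berries. The methyltransferase AOMT1 (VIT_01s0010g03510) fell from 5.74 ± 2.47 to 2.11 ± 1.69 FPKM (-1.20 ± 0.19 (SE), adjusted p = 0.00588). AOMT2 (VIT_01s0010g03490) and the MATE transporter named AM3 (VIT_16s0050g00910) fell less, with changes of -0.52 and -0.37 (adjusted p = 0.0329 and 0.0364). With all 20 columns these were 0.457 and 0.285, after quantile normalization 0.122 and 0.2, and without the cultivar term 0.185 and 0.62. AOMT2 was at 0.0588 with a minimum mean of 5 FPKM, and AM3 at 0.06 with no filter on low values. AM3 did not fall in Barbera, where it was at 1.82 and 1.83 FPKM. The adjusted p of AOMT2 was 0.0545 without Sangiovese, 0.0644 without Barbera, 0.0757 without Negroamaro and 0.0838 without Refosco, and that of AM3 0.102 without Sangiovese, 0.104 without Negroamaro, 0.0808 without Refosco and 0.117 without Primitivo.

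The entry into phenylpropanoid metabolism fell as well. Phenylalanine ammonia-lyase, PAL, turns phenylalanine into cinnamate. For this entry 20 tags of PAL and of cinnamate 4-hydroxylase (C4H) were tested, of which 14 fell (70.0%) and 1 rose (5.0%). These shares stand beside 18.0% and 22.2% of all genes, and the median change was -0.86. Of these 20 tags, 15 belong to a single tandem stretch and are not independent. Counting the 18 that averaged 1 FPKM over the 10 columns, 13 fell and 1 rose. The PAL gene VIT_08s0040g01710 stood at 33.7, 36.8, 50.7, 88.5 and 57.4 FPKM in pea-sized berries and 6.72, 5.68, 12.1, 5.92 and 4.91 FPKM in touching berries. Its groups were far apart, and the change was -2.73 ± 0.27 (SE), adjusted p = 0.00181. The PAL gene VIT_13s0019g04460 stood at 21.7, 16.8, 36.6, 45.7 and 41.1 FPKM in pea-sized berries and 5.59, 1.53, 6.49, 4.94 and 4.16 FPKM in touching berries, again without overlap (-2.59 ± 0.20 (SE), adjusted p = 0.00102). Another PAL gene, VIT_06s0004g02620, fell in 4 cultivars and not in Sangiovese, where it was at 12.7 and 15.3 FPKM (-2.19 ± 0.58 (SE), adjusted p = 0.0288). Its adjusted p was 0.0548 without Barbera, 0.0662 without Negroamaro, 0.0789 without Refosco and 0.094 without Primitivo, and 0.0534 with no filter on low values. Cinnamate 4-hydroxylase C4H (VIT_06s0004g08150), the next enzyme, went from 98.6 ± 32.5 to 46.2 ± 20.03 FPKM (-1.13 ± 0.22 (SE), adjusted p = 0.0115), with an adjusted p of 0.0684 when all 20 columns entered the fit. In the chromosome 16 stretch that holds the PAL cluster, 15 of 26 tags were tested, 10 fell and 1 rose. Counting the 14 that averaged 1 FPKM over the 10 columns, 9 fell and 1 rose.

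Stilbene synthases use the same precursors as chalcone synthase and make resveratrol. In the chromosome 16 stretch that holds their main cluster, 34 tags were tested, of which 16 fell (47.1%) and 0 rose, with a median change of -0.97, beside 18.0% and 22.2% of all genes. Copies in this stretch, and in those on chromosomes 10 and 5, may share reads, so these tags are not independent. Over the 10 columns 28 of the 34 averaged 1 FPKM, of which 15 fell, and the other 6 were tested through later stages. The summed level of the stretch was 121, 245, 143, 97.1 and 48.5 FPKM in pea-sized and 27.8, 29.8, 103, 23.1 and 45.2 FPKM in touching berries. Negroamaro had the highest sum in touching berries, and the difference between the stages was smallest in Primitivo. In the smaller stretch on chromosome 10, 3 of 9 tags tested fell (33.3%) and 0 rose, again beside 18.0% and 22.2%, and the sums were 154, 27.96, 56.9, 108 and 84.6 and 43.7, 22.2, 48.7, 38.7 and 78.1 FPKM. Of the 9, 8 averaged 1 FPKM over the 10 columns, and 3 of those fell. The activators of these genes, MYB14 (VIT_07s0005g03340) and MYB15 (VIT_05s0049g01020), were not called (adjusted p = 0.216 and 0.686). MYB15 was higher in touching berries of Negroamaro, from 8.66 to 17.8 FPKM, and lower in those of the other 4 cultivars, and without Negroamaro its adjusted p was 0.0273. Of 7 tags tested in the chromosome 5 stretch of pathogenesis-related PR10 genes, 3 fell (42.9%) and 0 rose, and of the 6 that averaged 1 FPKM over the 10 columns 2 fell. The sums were 472, 913, 353, 465 and 278 and 135, 368, 383, 655 and 202 FPKM, higher in touching berries of Negroamaro and Refosco.

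The size of the flavonoid change ranged widely over the cultivars. Over the 9 shared enzymes the median change was -0.41 in Sangiovese, -2.13 in Barbera, -1.25 in Negroamaro, -1.67 in Refosco and -2.79 in Primitivo. Sangiovese had the lowest pea-sized level and the highest touching level of ANR, of F3H1 and of CHS2. These are 1 value per cultivar and stage, so the difference between cultivars was not tested.

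The tartaric acid gene LIDH1 fell, while a neighbouring tag of its family, whose role in tartaric acid synthesis was not tested, rose. L-idonate dehydrogenase catalyses a step within the route from vitamin C to tartaric acid. LIDH1 (VIT_16s0100g00290) stood at 661, 528, 566, 435 and 199 FPKM in pea-sized berries and 198, 218, 184, 231 and 65.9 FPKM in touching berries. It fell in 5 of 5 cultivars (-1.42 ± 0.13 (SE), adjusted p = 0.00141), and Primitivo was the lowest at both stages. A neighbouring tag of the same family, VIT_16s0100g00300, rose from 60.2 ± 23.7 to 107 ± 22.2 FPKM (0.89 ± 0.23 (SE), adjusted p = 0.027), with the largest rise in Barbera. Its adjusted p was 0.0547 without Sangiovese, 0.0723 without Negroamaro and 0.0615 without Primitivo.

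Genes of sugar import and cleavage went both ways, in shares near those of all genes. Of 13 genes 4 rose (30.8%, against 22.2%) and 3 fell (23.1%, against 18.0%). The hexose transporter HT1 (VIT_00s0181g00010), a plasma membrane carrier of young berries, stood at 12.2, 39, 13.6, 19.7 and 15.3 FPKM in pea-sized berries and 4.42, 3.55, 4.56, 6.42 and 6.44 FPKM in touching berries. It fell without overlap of the groups (-1.68 ± 0.31 (SE), adjusted p = 0.0089), most in Barbera, and the change without Barbera was -1.32. The vacuolar hexose carrier HT6 (VIT_18s0122g00850) stood at 73.7, 91.2, 75.3, 84.5 and 78.1 FPKM in pea-sized berries and 129, 168, 113, 132 and 118 FPKM in touching berries. All touching values were above all pea-sized ones (0.70 ± 0.06 (SE), adjusted p = 0.00134). Sucrose carrier SUC11 (VIT_18s0001g08210) rose in 5 of 5 cultivars (0.51 ± 0.06 (SE), adjusted p = 0.00227; 0.0632 with all 20 columns and 0.312 without the cultivar term). HT2 (VIT_18s0001g05570) and the sugar uniporter SWEET10 (VIT_17s0000g00830) rose by 1.02 and 0.72 (adjusted p = 0.0236 and 0.0464), and both were not called with all 20 columns (0.121 and 0.239). SWEET10 did not rise in Sangiovese, where it was at 53.5 and 48.9 FPKM. The adjusted p of HT2 was 0.0756 without Sangiovese, 0.0598 without Negroamaro and 0.0533 without Primitivo, and that of SWEET10 was 0.0734 without Barbera, 0.126 without Negroamaro, 0.0941 without Refosco and 0.114 without Primitivo. SWEET10 was also at 0.0691 at equal total FPKM, 0.078 with no filter on low values, 0.276 without the cultivar term and 0.0503 without a mean-variance trend. HT5 (VIT_05s0020g03140) fell by 1.11 (adjusted p = 0.0136; 0.105 with all 20 columns). Vacuolar invertases split sucrose into hexoses. GIN1 (VIT_16s0022g00670) was at 942 ± 229.7 and 1007 ± 206 FPKM and was not called (adjusted p = 0.445), while GIN2 (VIT_02s0154g00090) fell from 74.01 ± 14.9 to 46.9 ± 8.63 FPKM (-0.65 ± 0.13 (SE), adjusted p = 0.0113). The cell wall invertase VIT_09s0002g02320 was higher in touching berries of 4 cultivars and lower in Barbera. It was not called (adjusted p = 0.128), but was without Barbera (0.00591). HT3 (VIT_11s0149g00050) and SUC12 (VIT_01s0026g01960) were not called over 5 cultivars (adjusted p = 0.0661 and 0.0936) but were without Barbera (0.00887 and 0.0265), and HT3 was also called at equal total FPKM (0.0304).

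**Figure D3:**
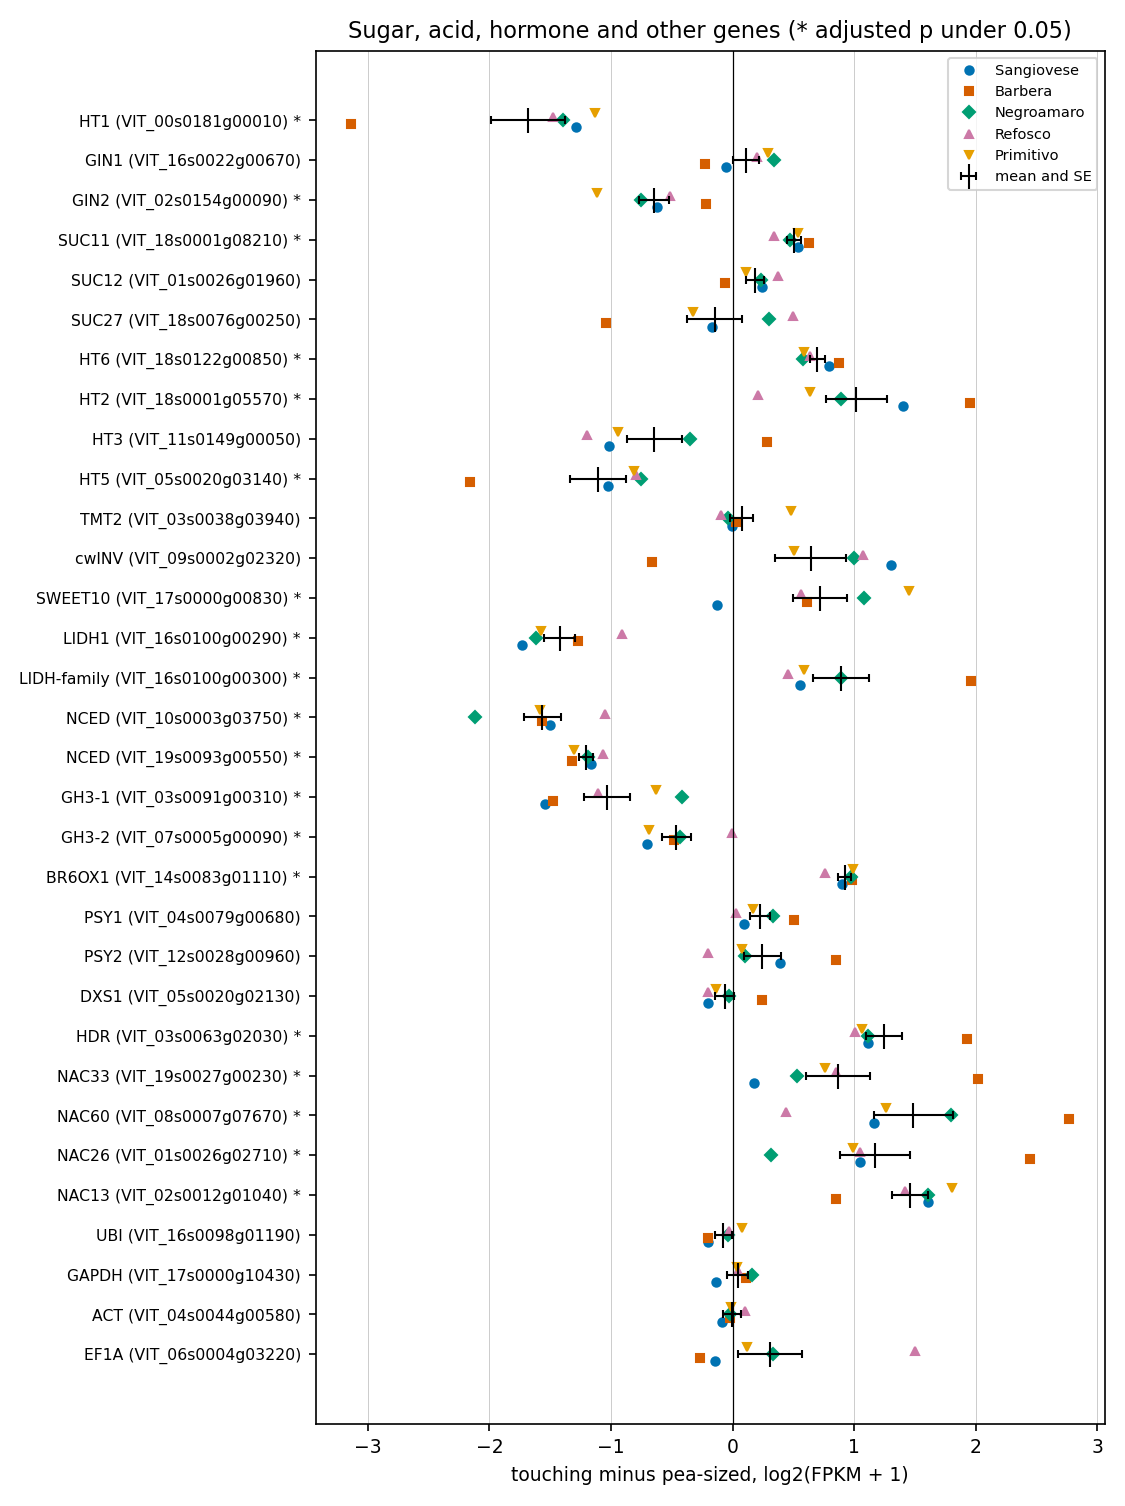
Change from pea-sized to touching berries of sugar, acid, hormone, isoprenoid, NAC and reference genes (horizontal axis, difference of log2(FPKM + 1)), with 1 symbol per cultivar and the mean and SE of the fit in black. An asterisk marks an adjusted p under 0.05, Barbera stands apart for HT1 and HDR, and Refosco is the highest for EF1A.

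Hormone genes changed before softening. NCED enzymes cleave carotenoids in the synthesis of abscisic acid, a hormone of ripening onset, and both tags fell. VIT_19s0093g00550 stood at 43.3, 42.8, 32.2, 39.7 and 49.9 FPKM in pea-sized berries and 18.8, 16.5, 13.6, 18.4 and 19.7 FPKM in touching berries. The groups did not overlap (-1.21 ± 0.06 (SE), adjusted p = 0.0005). VIT_10s0003g03750 went from 15.4 ± 7.82 to 4.29 ± 1.77 FPKM (-1.56 ± 0.15 (SE), adjusted p = 0.00156). GH3 enzymes attach amino acids to auxin. GH3-1 (VIT_03s0091g00310) fell from 58.2 ± 14.1 to 30.1 ± 16.4 FPKM (-1.04 ± 0.19 (SE), adjusted p = 0.00908), and GH3-2 (VIT_07s0005g00090) fell by 0.46 (adjusted p = 0.0282, but 0.0876 without Sangiovese, 0.0712 without Negroamaro and 0.0941 without Primitivo, 0.092 after quantile normalization and 0.11 without the cultivar term). Brassinosteroid 6-oxidase BR6OX1 (VIT_14s0083g01110), which makes active brassinosteroid, stood at 139, 176, 117, 159 and 131 FPKM in pea-sized berries and 259.8, 349, 231, 271 and 262 FPKM in touching berries. It rose without overlap (0.92 ± 0.06 (SE), adjusted p = 0.00069; 0.0981 with all 20 columns), and its mean was 13.2 FPKM in soft berries.

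The 4 NAC transcription factors on the list, which are known from berry ripening, were already higher in touching berries, at low levels for 3 of them. NAC13 (VIT_02s0012g01040) stood at 1.05, 1.65, 2.18, 0.832 and 2.92 FPKM in pea-sized berries and 5.22, 3.796, 8.65, 3.896 and 12.7 FPKM in touching berries. Every touching value was above every pea-sized one (1.46 ± 0.15 (SE), adjusted p = 0.00182). NAC60 (VIT_08s0007g07670) stood at 1.43, 0.613, 1.098, 0.915 and 1.16 FPKM in pea-sized berries and 4.45, 9.97, 6.3, 1.59 and 4.17 FPKM in touching berries. It rose in 5 of 5 cultivars, least in Refosco (1.49 ± 0.32 (SE), adjusted p = 0.0157), with an adjusted p of 0.0525 without Negroamaro. NAC26 (VIT_01s0026g02710) and NAC33 (VIT_19s0027g00230) rose by 1.17 and 0.87 (adjusted p = 0.023 and 0.0443). The adjusted p of NAC26 was 0.0624 without Sangiovese, 0.0592 without Refosco and 0.0645 without Primitivo. That of NAC33 was 0.0777 without Negroamaro, 0.103 without Refosco and 0.106 without Primitivo, 0.0719 with all 20 columns, 0.0976 with a pseudocount of 5, 0.0508 after upper-quartile scaling, 0.0726 with no filter on low values, 0.157 without the cultivar term and 0.0554 at equal total FPKM. In Barbera the changes of NAC33, NAC60 and NAC26 were the largest of the 5 cultivars, and that of NAC13 was the smallest.

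In the plastid isoprenoid pathway HDR (VIT_03s0063g02030), its last enzyme, stood at 173, 74.9, 130.4, 145 and 158 FPKM in pea-sized berries and 374, 288, 284, 293 and 332 FPKM in touching berries. It rose without overlap (1.25 ± 0.15 (SE), adjusted p = 0.00258), and without Barbera, where the rise was largest, the change was 1.07. The first enzyme of the pathway, DXS1 (VIT_05s0020g02130), and phytoene synthases PSY1 and PSY2, which begin carotenoid synthesis, were not called (adjusted p = 0.533, 0.072 and 0.246). The lipoxygenase tag VIT_06s0004g01510 was not called either (change 0.33, adjusted p = 0.283).

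**Figure D4:**
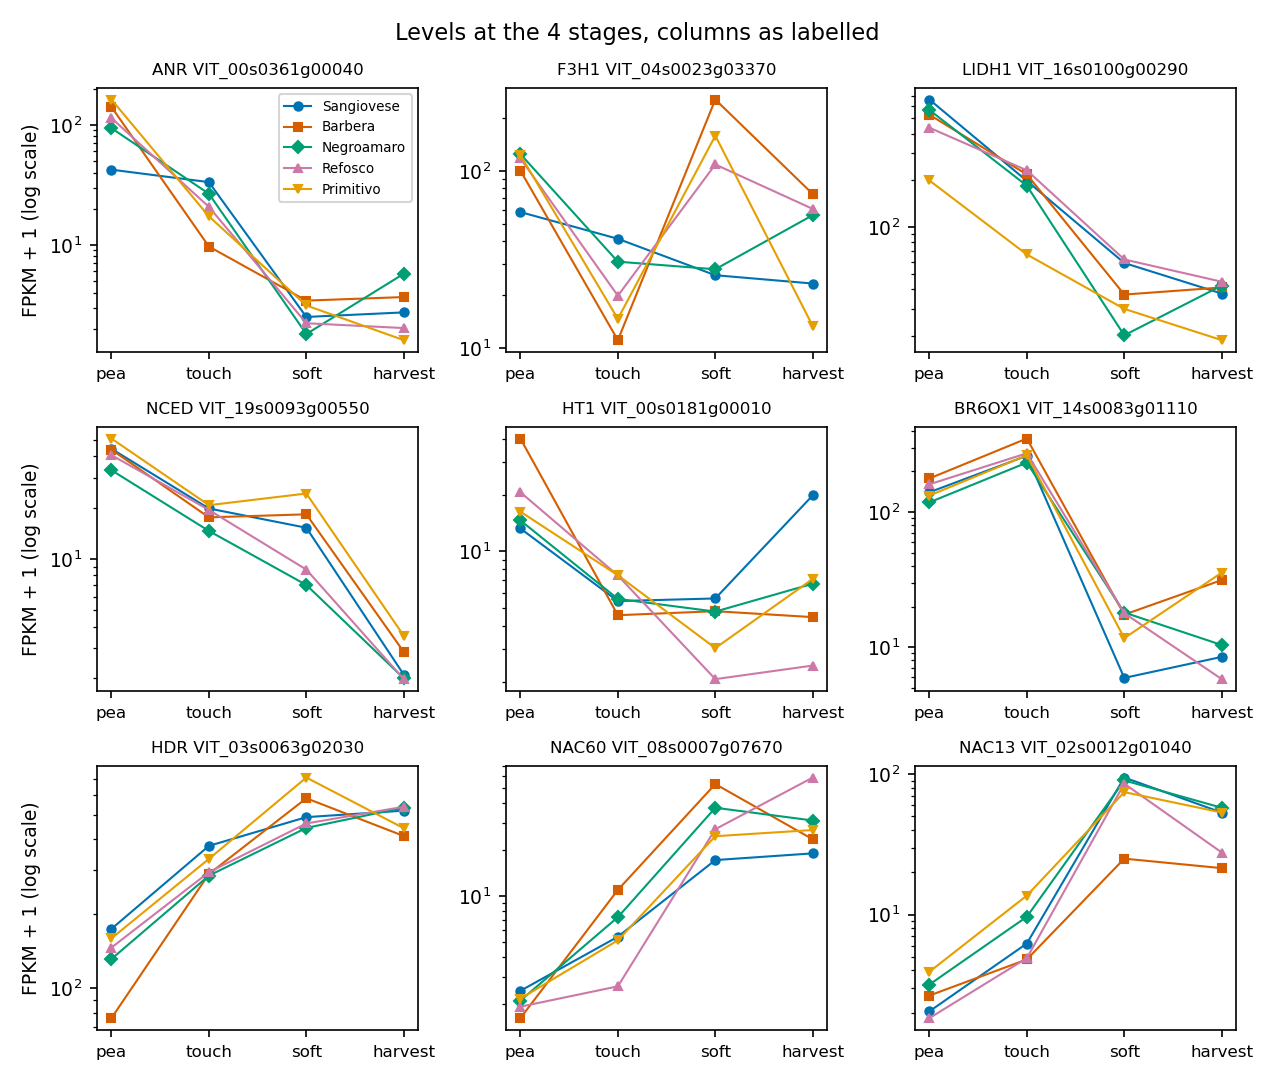
Levels of 9 genes, chosen after their values were seen, at the 4 stages (vertical axes, FPKM + 1 on a log scale; 1 line per cultivar, columns as labelled). From pea-sized to touching berries ANR, LIDH1 and NCED go down and HDR, NAC60 and NAC13 go up in all 5 cultivars, and BR6OX1 is highest in touching berries.

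The 4 genes often used as references were not called, with changes of -0.08 for ubiquitin, 0.04 for GAPDH, -0.01 for actin and 0.31 for the elongation factor EF1A. EF1A (VIT_06s0004g03220) was the least even, at 667, 866, 1330.4, 785 and 626 FPKM in pea-sized berries and 604, 719, 1675, 2225 and 679.7 FPKM in touching berries, with Refosco higher in touching berries than any other column. GAPDH changed sign to -0.12 at equal total FPKM, where ubiquitin was called lower (adjusted p = 0.0335). Over all 19 lists, 153 tags were tested, of which 15 rose (9.8%) and 60 fell (39.2%), against 22.2% and 18.0% of all genes, and with all 20 columns these were 7 and 21. Of the 153 tags, 17 were tested only through their levels at later stages. The lists hold tandem copies and were chosen with results known, so these shares describe the lists alone.

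Among genes without a name, the largest rises were those of VIT_01s0011g05110 and VIT_00s0323g00060. VIT_01s0011g05110 stood at 0.6703, 3.93, 45.97, 0.2299 and 4.68 FPKM in pea-sized berries and 523, 1739.8, 746, 176 and 194 FPKM in touching berries. All touching values exceeded all pea-sized ones, with Barbera highest (6.60 ± 0.73 (SE), adjusted p = 0.00214). VIT_00s0323g00060 went from 12 ± 12.4 to 229.8 ± 175 FPKM (4.52 ± 0.34 (SE), adjusted p = 0.00099). The largest falls were those of VIT_19s0027g01810, at 28.7, 37.7, 58.1, 286 and 176 FPKM in pea-sized berries and 0.2701, 0.157, 0, 0.621 and 0.123 FPKM in touching berries (-6.05 ± 0.48 (SE), adjusted p = 0.00107), and of VIT_13s0019g01520, at 18.1, 18.9, 74.99, 265 and 167 FPKM in pea-sized berries and 0.0345, 0.0952, 0, 0.321 and 0.234 FPKM in touching berries (-5.88 ± 0.59 (SE), adjusted p = 0.00182). Both were highest in pea-sized berries of Refosco and Primitivo. In all, 4 genes were at 10 FPKM or more in 5 of 5 pea-sized columns and under 1 FPKM in 5 of 5 touching columns, and 0 genes showed the opposite.

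The top of the abundance list changed too. The 10 highest rows of each column took 6.16% ± 0.792 of the total FPKM in pea-sized and 13.2% ± 2.90 in touching berries, higher in 5 of 5 cultivars. In Refosco the share went from 7.24% to 8.36%, and in the other 4 cultivars it was 5.33% to 6.72% before and 13.1% to 15.8% after. VIT_19s0014g02740 had the highest mean of touching berries, and it stood at 4234, 2658, 5938, 15412 and 4220.2 FPKM in pea-sized berries and 62990.4, 83200.3, 86665, 0 and 69897 FPKM in touching berries. In those 4 cultivars its share of all FPKM was 0.334% to 0.75% before and 7.17% to 9.44% after. Most of the rise in the share of the 10 highest rows there lay in this row. It was listed at 0 in touching berries of Refosco, after 1.91% in pea-sized ones, and was the highest gene of the other 4 touching columns. An exact 0 in a table without counts can be a failed estimate, and the gene was called without Refosco (adjusted p = 0.00517) and not with it (0.889). VIT_05s0020g01170 and VIT_11s0016g00210, also among the 5 highest of touching berries, rose from 4422 ± 686 to 10837 ± 696 FPKM and from 3535 ± 566 to 8766 ± 1702 FPKM (adjusted p = 0.0022 and 0.00183). Without a filter on low values these were 0.148 and 0.0877. The entry that joins VIT_18s0001g14260 and VIT_18s0001g14270, the highest of pea-sized berries, was at 7403 ± 4812 and 6566 ± 6607 FPKM and was not called, nor were VIT_18s0072g00380, VIT_02s0025g03390 and VIT_06s0004g04660. VIT_02s0025g03390 was called lower after quantile normalization (0.0473). An exact sign-flip permutation test over the 5 cultivars, two-sided, gave p = 0.063 for the share of the 10 highest rows and for the number of genes at 1 FPKM or more (0.078 adjusted over 5 measures), the smallest p it allows.

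Some changes ran along the chromosome. In 5 places 4 or more neighbouring tested tags moved together by 2-fold or more, and 4 of these runs fell and 1 rose. The longest, 6 tags from VIT_10s0003g03340 to VIT_10s0003g03440, fell from a summed 33.4 ± 7.34 to 3.33 ± 3.25 FPKM. The most abundant, 4 tags from VIT_00s0480g00070 to VIT_00s0480g00100 in sequence not placed on a chromosome, fell from 558 ± 191 to 129 ± 55.05 FPKM. The run that rose, 4 tags from VIT_05s0049g01090 to VIT_05s0049g01120, went from 61.3 ± 24.98 to 159.9 ± 68.97 FPKM, higher in 5 of 5 cultivars. Neighbouring copies can share reads, so these are described as stretches.

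Barbera had the widest changes. It had 1358 genes at least 2-fold higher and 2393 at least 2-fold lower in touching berries, against 435 to 641 and 924 to 1192 in the other 4 cultivars. The correlation of the changes across genes, a description in which genes are not independent replicates, was r = 0.558 to 0.764 over the 10 pairs of cultivars, and Barbera had the lowest median r with the others (0.608).

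**Figure D5:**
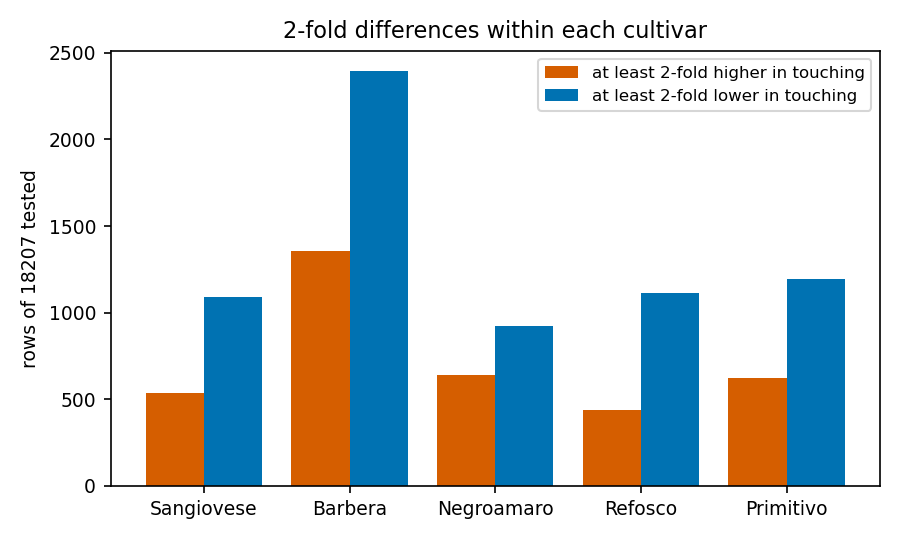
Number of genes of 18207 that were at least 2-fold higher (orange) or lower (blue) in touching than in pea-sized berries within each cultivar, without a test. Barbera has 1358 and 2393, more than any other cultivar, and falls outnumber rises in all 5.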

How the data were processed

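Per the labels' protocols, total RNA (2.5 µg, from about 400 mg of pericarp) went into TruSeq libraries that keep no strand, which were read on an Illumina HiSeq. TopHat2 2.0.6 and Cufflinks 2.0.2 are named in the submitters' processing notes, without roles, while a build and annotation were not given in the sources used here. The values deposited by the authors are FPKM, 1 mean per cultivar and stage, in 29287 rows and 20 columns, of which 608 rows join several tags. Depth is unknown, so no counting interval is given. Without strand, reads of antisense partners cannot be told apart.

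Genes that averaged 1 FPKM or more across the 20 columns were tested with limma 3.58.1 in R 4.3.3 on log2(FPKM + 1), over the 10 columns of both stages, with cultivar as a block, a mean-variance trend and adjustment over all 18207 genes. A change is on that log2 scale and understates changes of low genes. The fit was tested on simulated data. Nothing shows separate vines, and p-values measure a change against its variation between cultivars, not the spread between vines or libraries. The members, lists and tests were chosen with earlier results of these data known, including the 4165 calls of the 20-column fit, and most lists were written after the first rows of the table had been seen. Names came from published tag assignments. Lists given by product name could not be applied. The names rule took the largest changes that went one way in 5 of 5 cultivars with at least 10 FPKM in the higher stage, the 5 highest rows of each stage and the members of each list. Its first part could be used only for the 2 largest rises and falls. Alternatives were other pseudocounts, filters, scalings, variance models and columns, no cultivar term, and each cultivar left out. Python 3.11.15, numpy 2.4.6, pandas 2.3.3, scipy 1.17.1 and matplotlib 3.10.9 served for the rest.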

Additional observations from a re-analysis of the deposited data

Results flagged for a closer look

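In 94 sets of 5 cultivar values, 11 had 1 cultivar far from the other 4, where chance alone gives about 1 in 20. The sets share columns and are not independent, so setting these rates side by side is not a test of an excess. Barbera stood apart for its 1358 genes at least 2-fold higher and its 2393 at least 2-fold lower in touching berries. It also stood apart for the log2 changes of HT1 (-3.14, others -1.48 to -1.13), HT5 (-2.16, others -1.02 to -0.75), HDR (1.93, others 1.01 to 1.12) and the anthocyanin acyltransferase 3AT (VIT_03s0017g00870; 0.67, others -0.11 to 0.06), the last at levels of at most 1.06 FPKM. Primitivo stood apart for the flavonol synthase family member VIT_18s0001g03430 (-1.55, others 1.48 to 1.74) and for TMT2 (VIT_03s0038g03940), named as a vacuolar sugar carrier (0.48, others -0.10 to 0.03). Negroamaro stood apart for MYB15 (0.96, others -0.55 to -0.31) and for the C4H tag VIT_11s0078g00290 (0.10, others -0.26 to -0.16), which was under 0.3 FPKM in all 10 columns. Refosco stood apart for VIT_19s0014g02740 (-13.9, others 3.87 to 4.97), listed at 0 in its touching berries.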

How the results depend on the processing

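Of 45 named genes called, 22 were called under every alternative run and 0 changed sign. Calls lost numbered 12 with all 20 columns, 8 without the cultivar term, 8 with no filter on low values and 4 to 13 without 1 cultivar. Genes called numbered 7310, against 4165 (2253 higher, 1912 lower) with all 20 columns, 4433 (2332 and 2101) without the cultivar term and 2153 higher and 5195 lower at equal total FPKM. Leaving out 1 cultivar gave 4549 to 7466 genes called, 2446 to 4164 higher and 2103 to 3302 lower. List members that rose, 15, ranged from 8 to 17 and those that fell, 60, from 34 to 59 without 1 cultivar, and were 7 and 21 with all 20 columns. With a pseudocount of 5 there were 233 rises and 515 falls of at least 2-fold, and 597 such falls at a mean of at least 5 FPKM, where fewer genes were tested.

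Only genes not called changed sign. At equal total FPKM the log2 change became -0.14 for F3H2, -0.15 for WDR1, -0.0503 for GIN1, -0.0967 and -0.0691 for the flavonoid 3′-hydroxylase tags, -0.0219 for GT6, -0.0812 for AM1, -0.0848 for TMT2 and -0.12 for GAPDH. After quantile normalization it became -0.0144 for F3H2, -0.0232 for WDR1, -0.0617 for GIN1, -0.17 for GAPDH, -1.43 for VIT_19s0014g02740, -0.29 for VIT_18s0072g00380 and -0.23 for VIT_06s0004g04660. Upper-quartile scaling gave -0.0143 for F3H2 and -0.027 for WDR1. A pseudocount of 0.1 gave -0.0907 for VIT_19s0014g02740, and one of 5 gave -0.0011 for WDR1. Without 1 cultivar, the ranges that crossed 0 were -0.0969 to 0.0946 for F3H2, -0.0402 to 0.15 for 3AT, -0.35 to 0.25 for MYBPA1, -0.31 to 0.0749 for SUC27, -0.15 to 0.16 for GT6, -0.53 to 4.19 for VIT_19s0014g02740, -0.0067 to 0.0407 for UFGT, -0.0598 to 0.0931 for WDR1, -0.0572 to 0.23 for AM1, -0.20 to 0.21 for LAR2, -0.0321 to 0.12 for MYBA2, -0.0286 to 0.12 for TMT2 and -0.0341 to 0.0118 for ACT. The cause was not tested.

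No paired analysis was possible because the deposited columns are means that carry no replicate number, where the pairs meant are replicate libraries. The pairing by cultivar is part of the model, and the 7310 and 4433 calls above are those with and without it. Depth is unknown, so what it limits could not be measured.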
